A study of Mus musculus with 43 samples.

Results

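The genes described here are the mouse translation initiation and elongation factors. They were chosen by symbol: every gene whose symbol begins with Eif1 to Eif6, or with Eef1 or Eef2, leaving out the eIF2 kinases (Eif2ak) and pseudogenes (-ps). The rule found 59 of 23953 gene symbols. Levels are FPKM, fragment counts scaled for transcript length and library size, and a gene was tested in a set of libraries when its mean over that set reached 1 FPKM. That left 56 members in microglia, 55 in the neuronal nuclei of the CK-p25 set and 55 in those of the P301S set.

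Initiation factors bring the small ribosomal subunit and the initiator tRNA to the cap of an mRNA, scan to the start codon and join the large subunit. eIF4E binds the cap and is held back by the eIF4E binding proteins, which mTOR phosphorylates, and phosphorylation of eIF2 blocks its exchange factor eIF2B and lowers initiation. Elongation factor eEF1A then delivers aminoacyl-tRNA, the eEF1B complex (Eef1b2, Eef1d, Eef1g) recycles it, and eEF2 moves the ribosome along unless eEF2 kinase inhibits it. Many elongation factor mRNAs, like those of ribosomal proteins, begin with a run of pyrimidines directly at the cap, the terminal oligopyrimidine (TOP) motif, through which mTOR and LARP1 control their translation.

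The series compared mouse models of neurodegeneration with and without GENUS, the name its labels use for visual stimulation at 40 Hz, in visual cortex. CK-p25 mice carry Camk2a-tTA and tetO-CDK5R1/GFP, so that p25, an activator of Cdk5, is made in excitatory neurons, here after 6 weeks of induction; the promoter is not one of microglia. P301S mice (Tg(Prnp-MAPT*P301S)PS19), aged 8 months, carry mutant human tau driven by Prnp. Sorted neuronal nuclei (NeuN; nuclear RNA; a stranded total RNA kit for very small inputs) gave 4 CK-p25 + GENUS (43 days), 5 CK-p25 and 5 CK libraries, and 5 P301S + GENUS (22 days), 6 P301S and 6 WT libraries. Sorted microglia (CD11b and CD45; total RNA; SMART-Seq v4) gave 4 CK-p25 + GENUS (43 days), 4 CK-p25 and 4 CK libraries. The labels call CK and WT mice wild type controls and do not say which transgenes CK mice carry or how old the CK-p25 set was.

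Both sorts carried the markers of their labels. In microglia all 10 microglia markers had a group mean of at least 1 FPKM, and 8 neuron markers summed to 1.85 to 22.1 FPKM per library; in neurons all 8 neuron markers did, and the 10 microglia markers summed to 6.30 to 30.2 FPKM. Markers of other cells were present in both sorts. In neurons the 7 astrocyte markers summed to 106 to 279 FPKM per library and the 6 oligodendrocyte markers to 43.1 to 114 FPKM. In microglia the same lists summed to 65.8 to 105 FPKM and 134 to 956 FPKM. For scale, neuron markers summed to 999 to 1640 FPKM in neurons and microglia markers to 33200 to 45700 FPKM in microglia. Depth is unknown because the files hold no counts. In neurons, low values moved in steps of 1 fragment, and the step differed up to 1.95-fold between libraries of the CK-p25 set and 3.06-fold in the P301S set, with the coarsest step in P301S + GENUS replicate 2. The correlation of log2 values between replicates was 0.946 to 0.976 in microglia, 0.878 to 0.912 in CK-p25 set neurons and 0.837 to 0.886 in P301S set neurons. In microglia, replicates 1 and 2 stood apart from replicates 3 and 4 in all 3 groups along the first principal component of group-centred values (29.6% of the spread), so microglia results are also given within these 2 sides. In P301S set neurons the first component (12.8% of the spread) also split the libraries by replicate number, with P301S + GENUS replicates 1 and 2 and P301S and WT replicates 1 to 3 on one side and the others on the other. No label ties the replicates to different animals, and p-values therefore speak only of the spread among these libraries, which could be technical.

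TOP mRNAs are defined by the bases at the cap, so the annotated starts of members are shown first. Of the 9 members on a textbook list of TOP mRNAs (Eef1a1, Eef1b2, Eef1d, Eef1g, Eef2, Eif3e, Eif3f, Eif3h, Eif4b), 5 have an entry in the RefSeq promoter table (build GRCm38.p6; the deposited values were made on mm9). Each line gives the 25 bases before the annotated start and the 25 from it on, on the transcribed strand, with the longest uninterrupted run of C and T in capitals. The 5 TOP list genes come first, then the 3 other members whose longest run has at least 8 bases and covers the annotated start.
Eef1a1: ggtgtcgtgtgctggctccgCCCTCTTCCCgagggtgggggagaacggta
Eef1b2: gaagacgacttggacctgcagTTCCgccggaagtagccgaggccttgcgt
Eef2: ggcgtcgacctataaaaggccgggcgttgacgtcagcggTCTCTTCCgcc
Eif3f: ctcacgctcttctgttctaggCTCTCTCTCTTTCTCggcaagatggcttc
Eif4b: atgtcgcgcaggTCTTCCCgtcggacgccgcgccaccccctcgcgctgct
Eif2b5: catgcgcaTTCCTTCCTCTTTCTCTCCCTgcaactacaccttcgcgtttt
Eif2s3x: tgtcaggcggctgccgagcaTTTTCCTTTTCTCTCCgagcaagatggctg
Eif3l: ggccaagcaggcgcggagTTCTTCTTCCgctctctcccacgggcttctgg

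The windows lie at chr9:78481700-78481749 (minus strand) for Eef1a1, chr1:63176806-63176855 (plus strand) for Eef1b2, chr10:81176606-81176655 (plus strand) for Eef2, chr7:108934390-108934439 (plus strand) for Eif3f and chr15:102073748-102073797 (plus strand) for Eif4b. Those of the other 3 genes lie at chr16:20498792-20498841 (plus strand) for Eif2b5, chrX:94212627-94212676 (minus strand) for Eif2s3x and chr15:79075198-79075247 (plus strand) for Eif3l. Only the longest run of each window was counted, and only where it had at least 8 bases and covered the annotated start. Such a run was present in 2 of the 5 TOP list genes, Eef1a1 with 10 bases and Eif3f with 15. It was present in 3 of the 40 other members with an entry, and in 4.15% of all 27025 genes in the table. These 3 did not pass in CK-p25 against CK microglia (tested below), though Eif3l did in CK-p25 + GENUS against CK. Of the members outside the list with an entry, 0 of the 4 that rose in CK-p25 against CK microglia had the run. Of the 31 tested there and not called, 3 had it. A run over the start beside a longer one elsewhere in the window was not counted. In Eef2 the longest run, of 8 bases, lies downstream of the annotated start. A window not counted says only that its longest run is shorter or lies elsewhere, since the start used in these cells can differ.

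Microglia and neuronal nuclei held different members at the highest levels. In microglia Eef1a1 averaged 707 ± 85.7 FPKM in CK-p25 + GENUS, 679 ± 68.7 in CK-p25 and 257 ± 15.3 in CK (SD, n = 4 each). Eif1, which acts in start codon selection, averaged 274 ± 15.1 FPKM in CK-p25 + GENUS, 269 ± 22.4 in CK-p25 and 247 ± 21.6 in CK. Eif5a, the hypusinated elongation factor, averaged 293 ± 19.3 FPKM in CK-p25 + GENUS, 266 ± 18.8 in CK-p25 and 220.5 ± 14.2 in CK. In CK microglia Eef1a1 stood above Eif1, and Eif1 above Eif5a, by less than the summed SDs of each pair. In neuronal nuclei the highest means were those of Eef1a2, the eEF1A paralog of neurons and muscle, with 85.3 to 113.5 FPKM over the 6 groups, and Eif4g3, an eIF4G scaffold paralog, with 91.5 to 100 FPKM (group means). Which of the 2 was higher varied between groups, by less than their summed SDs. The summed FPKM of all members was 3238 to 3521 per library in CK-p25 + GENUS microglia, 3112 to 3371 in CK-p25 microglia, 2361 to 2490 in CK microglia and 959 to 1211 in neurons. Kit, RNA fraction and sort differ between the cell types, so these levels carry no test.

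Paralogs divided the cell types. Eef1a2 made up 72.9% to 82.1% of the summed FPKM of Eef1a1 and Eef1a2 in the neuron groups (group means), and at most 0.0178% in any microglia library. Eif4a2, a paralog of the eIF4A helicase Eif4a1, made up 79.0% to 82.4% of their sum in the neuron groups and 28.5% to 34.8% in the microglia groups. Eif4ebp2, an eIF4E binding protein prominent in brain, made up 36.5% to 67.4% of its sum with Eif4ebp1 in the neuron groups (group means). Single neuron libraries ranged from 19.71% to 100%, the latter with Eif4ebp1 at 0. This pair leaves out Eif4ebp3, at 7.40 to 19.4 FPKM in neuron libraries and 0.720 to 1.93 FPKM in microglia libraries. In neuron libraries Eif4ebp2 was at 0.362 to 6.35 FPKM and Eif4ebp1 at 0 to 8.73 FPKM. In microglia the Eif4ebp2 share was 2.89% to 3.85% in CK-p25 + GENUS, 2.11% to 4.81% in CK-p25 and 7.56% to 9.89% in CK libraries, with CK above both other groups. The exact two-sided permutation test of this share gave p = 0.0286 for CK-p25 + GENUS against CK and for CK-p25 against CK, the smallest that 4 against 4 libraries allow, and an adjusted p of 0.386 over 27 tests (3 shares in 9 comparisons). At these group sizes a single share could not pass over 27 tests even at the smallest p possible (0.00217 in the largest groups), so the adjusted values say nothing for or against a difference.

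**Figure D1:**
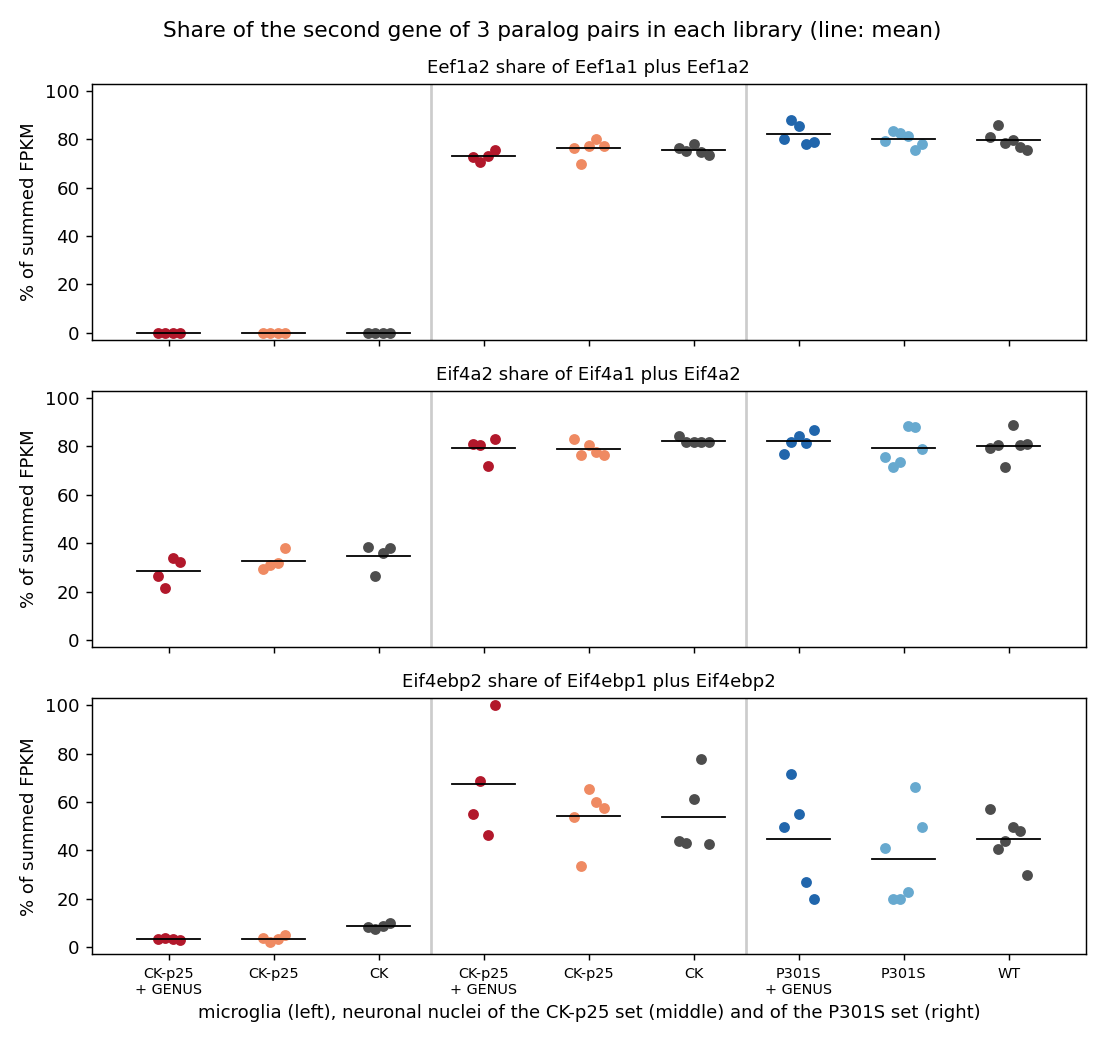
Share of the second gene of each paralog pair in their summed FPKM (percent, y axis) in every library, by group; points are libraries and lines are means. The Eef1a2 share is near 0 in all 12 microglia libraries and 69.7% to 88.0% in neurons, and the Eif4ebp2 share of CK microglia lies above that of CK-p25 microglia with and without GENUS.

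In microglia of CK-p25 mice 16 of 56 members rose and 3 fell relative to CK (limma on log2(FPKM + 1), adjusted p under 0.05 over 10394 genes). Over all genes tested, 16.1% rose and 10.9% fell. The members' median log2 change was 0.13, against -0.02 over all genes. Quantile normalization gave 1382 genes higher and 1545 lower, where the values as deposited gave 1672 and 1130, and it gave 14 members higher and 5 lower, with a members' median of 0.06. All 9 TOP list members rose, with log2 changes of 0.54 to 1.40 and a median of 0.88, and in each the CK-p25 libraries lay above all CK libraries. Of the 47 tested members outside that list 7 rose and 3 fell, with a median of 0.09. Over all genes, 37.1% had p under 0.05 before adjustment. The share of all genes whose groups did not overlap is not given here, so groups called apart, here and below, are description only. All 9 TOP list members were also called in replicates 3 and 4 alone and whichever of the 8 libraries was left out, and 8 of them in replicates 1 and 2 alone. These are subsets of the same libraries, with sides chosen from the data, and so no independent support. The members called within those sides numbered 13 higher and 1 lower in each, where 13.4% of all genes rose and 7.9% fell in replicates 1 and 2 alone, and 10.3% rose and 5.18% fell in replicates 3 and 4 alone.

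**Figure D2:**
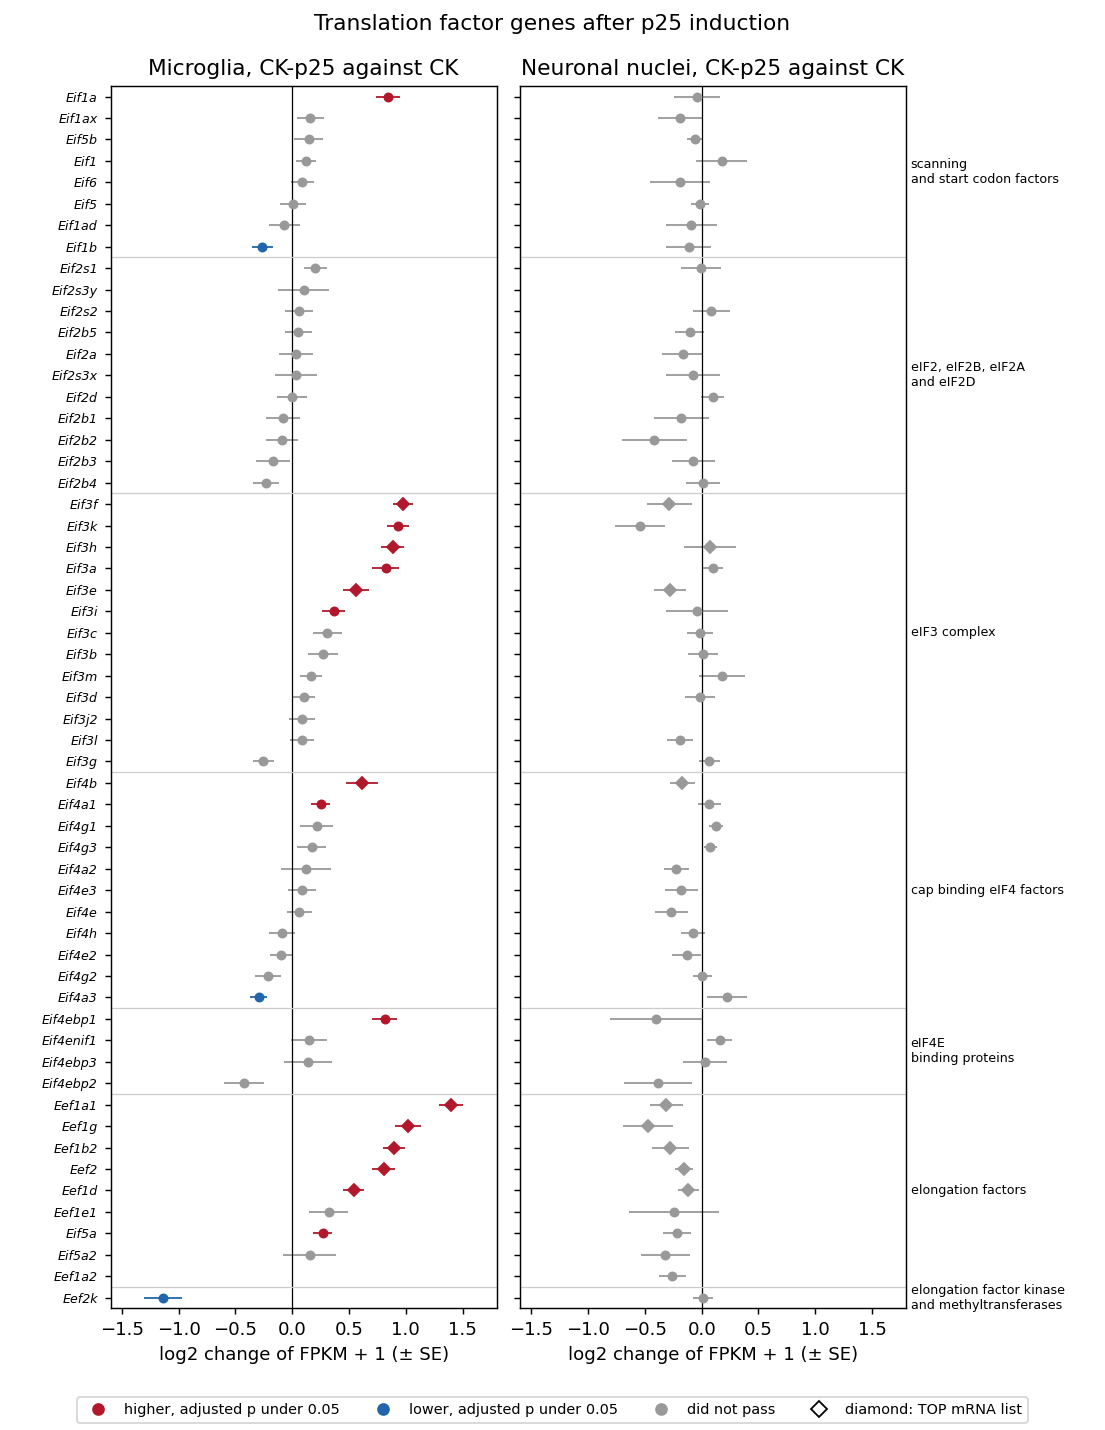
Log2 change of FPKM + 1 with its SE (x axis) for each tested member, CK-p25 against CK, in microglia (left) and neuronal nuclei (right), grouped by role. Red and blue points passed the test; all 9 diamonds (TOP list) are red in microglia, with changes of 0.54 to 1.40, and no member passed in neuronal nuclei.

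Of the 8 tested elongation factors 6 rose, where 16.1% of all genes did. Eef1a1, which delivers aminoacyl-tRNA to the ribosome, had 723, 752, 624 and 617 FPKM in the CK-p25 libraries, against 273, 244, 266 and 244 FPKM in the CK libraries. The groups lay far apart, and the log2 change was 1.40 ± 0.10 (SE; 2.63-fold on the FPKM + 1 scale, limma adjusted p = 3.98e-07). Eef1a1, Eif5a and Eif4a1 have many processed pseudogenes, and the sources do not say how reads shared with such copies were counted.
The eEF1B subunits rose as well. Eef1b2 had 36.3, 42.9, 33.4 and 36.8 FPKM in CK-p25 microglia, against 19.98, 19.0, 20.3 and 19.0 FPKM in CK microglia (log2 change 0.89 ± 0.10, adjusted p = 1.27e-05). Eef1g had 30.2, 25.7, 29.0 and 27.6 FPKM in CK-p25, against 14.3, 15.2, 12.9 and 11.4 FPKM in CK microglia (log2 change 1.02 ± 0.11, adjusted p = 1.29e-05). Eef1d had 41.5, 45.7, 45.0 and 40.1 FPKM in CK-p25, against 26.6, 30.3, 32.2 and 28.2 FPKM in CK microglia (log2 change 0.54 ± 0.09, adjusted p = 0.000501). None of these groups overlapped.

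The translocase gene and the gene of its kinase moved in opposite directions. Eef2 had 146, 148, 139 and 122 FPKM in CK-p25 microglia, against 82.2, 80.6, 83.5 and 69.2 FPKM in CK microglia (log2 change 0.81 ± 0.10, adjusted p = 4.28e-05). Eef2k, whose product phosphorylates and inhibits eEF2, had 14.6, 13.5, 20.1 and 21.8 FPKM in CK-p25, against 46.3, 39.7, 38.5 and 32.9 FPKM in CK microglia (log2 change -1.14 ± 0.17, adjusted p = 0.000156). Neither pair of groups overlapped. The change of Eef2k was -1.54 in replicates 1 and 2 alone and -0.74 in replicates 3 and 4 alone, past the threshold in both, and that of Eef1a1 was 1.51 and 1.28. Eif5a had 287, 269, 265 and 241 FPKM in CK-p25, against 212, 241, 219 and 210.1 FPKM in CK microglia (log2 change 0.27 ± 0.08, adjusted p = 0.0262). Its change was -0.02 under quantile normalization, and its call was lost without any one of 6 of the 8 libraries. Eef1e1 and Eif5a2 did not pass.

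**Figure D3:**
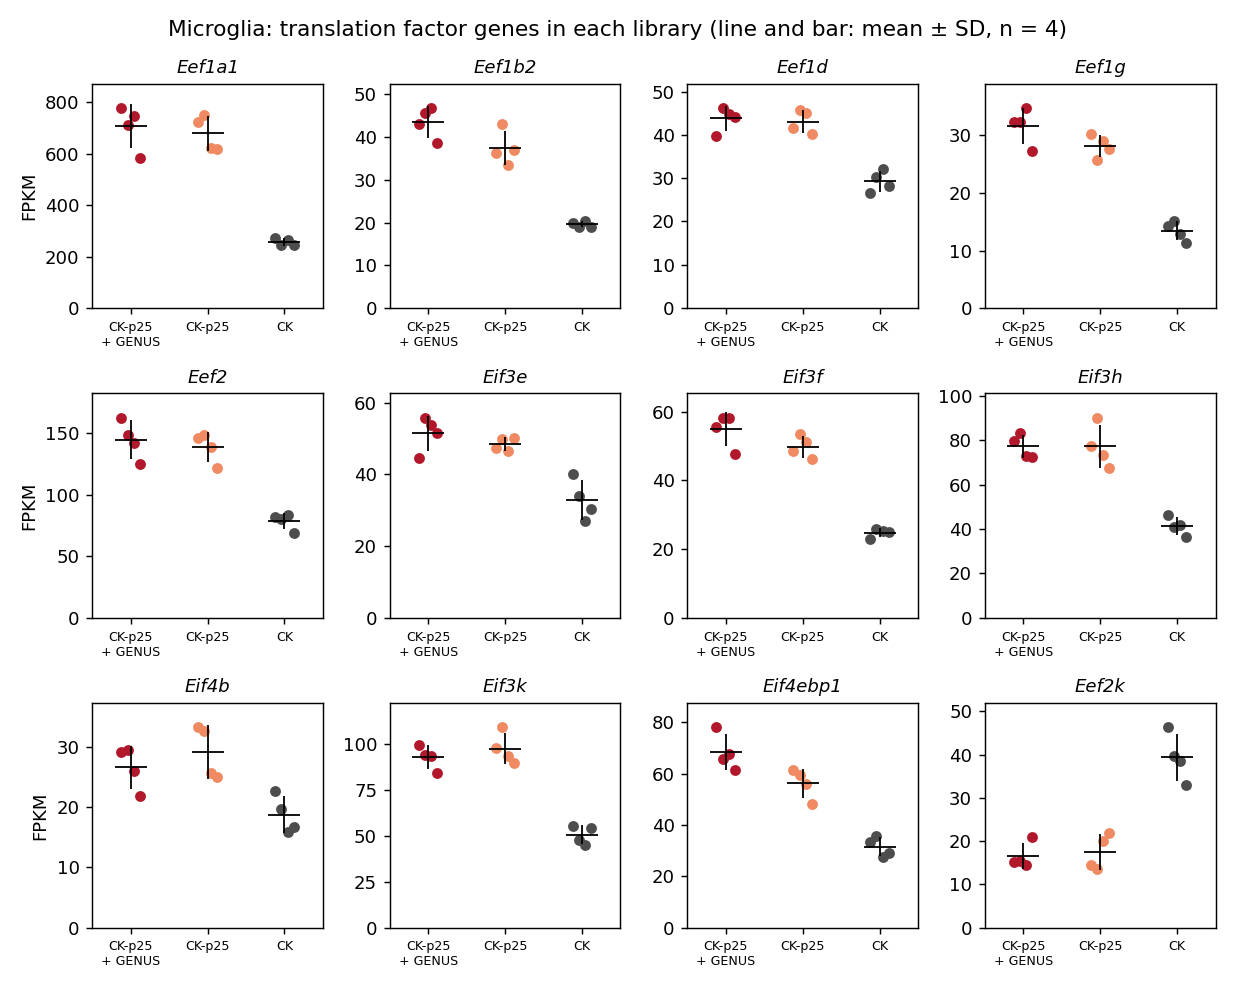
FPKM (y axes, from 0) of the 9 TOP list members, Eif3k, Eif4ebp1 and Eef2k in each microglia library of CK-p25 + GENUS, CK-p25 and CK mice; black lines and bars are mean ± SD, n = 4. Eef1a1 lies at 585 to 779.5 FPKM in both CK-p25 groups, against 244 to 273 FPKM in CK, and Eef2k at 13.5 to 21.8 FPKM, against 32.9 to 46.3 FPKM in CK.

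Of the 13 tested subunits of eIF3, the scaffold on the small ribosomal subunit, 6 rose and none fell. Over all genes 16.1% rose and 10.9% fell. Eif3f, a TOP list gene, had 48.5, 53.4, 51.1 and 46.2 FPKM in CK-p25, against 23.1, 25.8, 25.4 and 25.1 FPKM in CK microglia (log2 change 0.97 ± 0.09, adjusted p = 2.91e-06). Eif3h, also on the list, had 77.4, 90.1, 73.5 and 67.4 FPKM in CK-p25, against 46.4, 40.9, 41.7 and 36.2 FPKM in CK microglia (log2 change 0.88 ± 0.10, adjusted p = 2.71e-05). Eif3e, the third on the list, had 47.3, 50.0, 46.4 and 50.1 FPKM in CK-p25, against 40.1, 33.8, 27.0 and 30.4 FPKM in CK microglia (log2 change 0.56 ± 0.12, adjusted p = 0.00241). The groups of all 3 were apart.
The other 3 subunits that rose are not on the list. Eif3k had 97.6, 109, 93.2 and 89.4 FPKM in CK-p25, against 55.5, 47.6, 44.9 and 54.1 FPKM in CK microglia (log2 change 0.93 ± 0.10, adjusted p = 7.27e-06). Eif3a, the largest subunit, had 29.5, 30.03, 24.1 and 24.8 FPKM in CK-p25, against 17.9, 13.5, 12.5 and 16.0 FPKM in CK microglia (log2 change 0.82 ± 0.12, adjusted p = 0.000185). Eif3i had 54.4, 56.5, 48.3 and 48.1 FPKM in CK-p25, against 41.8, 40.6, 44.3 and 33.6 FPKM in CK microglia (log2 change 0.37 ± 0.10, adjusted p = 0.0158). Their groups did not overlap either. The other 7 subunits, with log2 changes from -0.26 (Eif3g) to 0.31 (Eif3c), did not pass.

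Of the 8 scanning and start codon factors 1 rose and 1 fell, and of the 11 cap binding eIF4 factors 2 rose and 1 fell. Over all genes tested 16.1% rose and 10.9% fell, so these counts are no result about the 2 families. Eif1a, an eIF1A gene that acts in scanning, had 36.1, 43.1, 31.1 and 41.5 FPKM in CK-p25, against 20.1, 19.8, 20.98 and 21.4 FPKM in CK microglia, with no overlap (log2 change 0.84 ± 0.11, adjusted p = 4.39e-05). Its paralog Eif1ax had a log2 change of 0.16 ± 0.12 and did not pass. Eif4b, the TOP list gene that stimulates the eIF4A helicase, had 33.2, 32.7, 25.6 and 25.1 FPKM in CK-p25, against 22.6, 19.7, 15.9 and 16.8 FPKM in CK microglia (log2 change 0.61 ± 0.14, adjusted p = 0.00531). The groups were apart, and in both of them replicates 1 and 2 were higher than replicates 3 and 4.
The remaining 3 calls of these families were small, and those of Eif4a1 and Eif1b were less stable. Eif4a1, the eIF4A helicase, had 84.8, 89.6, 87.7 and 91.9 FPKM in CK-p25, against 69.3, 77.8, 76.1 and 73.5 FPKM in CK microglia (log2 change 0.25 ± 0.08, adjusted p = 0.0406), and its call was lost whichever of the 8 libraries was left out. Under quantile normalization its log2 change was 0.09 and did not pass, nor did it in the robust fit. Eif4a3, the eIF4A paralog of the exon junction complex, had 79.2, 73.3, 77.9 and 73.4 FPKM in CK-p25, against 102, 94.1, 96.0 and 83.3 FPKM in CK microglia (log2 change -0.30 ± 0.08, adjusted p = 0.0122). Its call was kept whichever of the 8 libraries was left out. Eif1b, a paralog of Eif1, had 62.0, 59.6, 52.1 and 60.8 FPKM in CK-p25, against 76.6, 67.1, 74.7 and 64.0 FPKM in CK microglia (log2 change -0.26 ± 0.09, adjusted p = 0.0462), and its call was lost without any one of 7 of the 8 libraries. The Eif1b call was also lost under median-ratio rescaling, with only the groups compared, with a replicate block and in the robust fit. The groups of all 3 were apart, and none of the 3 passed in replicates 1 and 2 alone or in replicates 3 and 4 alone.

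The eIF4E binding proteins differed from each other, and eIF4E and its scaffold did not pass. Eif4ebp1 had 61.4, 59.3, 55.9 and 48.3 FPKM in CK-p25, against 33.6, 35.9, 27.7 and 29.3 FPKM in CK microglia, with no overlap (log2 change 0.81 ± 0.11, adjusted p = 9.28e-05). Eif4ebp2 had 2.37, 1.28, 1.93 and 2.44 FPKM in CK-p25, against 3.12, 2.94, 2.66 and 3.21 FPKM in CK microglia, also with no overlap (log2 change -0.42 ± 0.18, adjusted p = 0.0938), and passed only in the robust limma fit without a trend. Eif4e, the cap binding protein, had 29.0, 25.4, 24.9 and 24.9 FPKM in CK-p25, against 27.2, 22.0, 25.9 and 24.6 FPKM in CK microglia, overlapping (log2 change 0.06 ± 0.11). Eif4g1, the scaffold, had 20.9, 16.7, 19.9 and 17.2 FPKM in CK-p25, against 17.6, 17.0, 15.2 and 14.0 FPKM in CK microglia, overlapping as well (log2 change 0.21 ± 0.14, adjusted p = 0.301). Eif4a2 had a log2 change of 0.12 ± 0.22 and did not pass.

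None of the 11 tested genes of eIF2, of eIF2B and of the separate factors eIF2A and eIF2D passed in limma. The separate factors act on initiator tRNA outside eIF2. Log2 changes of the 11 genes were -0.23 to 0.20, and the robust fit called 0. Before adjustment 0 of them had p under 0.05, where 37.1% of all genes had. Eif2s1, the subunit that the stress kinases phosphorylate, had 28.1, 27.7, 29.2 and 27.2 FPKM in CK-p25, against 23.9, 24.2, 24.2 and 24.7 FPKM in CK microglia. These groups did not overlap, and the log2 change of 0.20 ± 0.10 had an adjusted p of 0.172. Eif2b5, the catalytic subunit of eIF2B, had 19.6, 16.7, 23.2 and 19.9 FPKM in CK-p25, against 19.1, 20.8, 17.1 and 18.8 FPKM in CK microglia, overlapping (log2 change 0.05 ± 0.12).

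Genes around the factors moved in both directions, as did all genes tested, of which 16.1% rose and 10.9% fell. Of 13 tested targets of the integrated stress response, which eIF2 phosphorylation sets off, 8 rose and none fell in CK-p25 against CK microglia. Asns, Chac1 and Trib3 averaged under 1 FPKM in CK and reached the minimum through the CK-p25 groups, so they had to differ; of the 10 at 1 FPKM or more in both groups 5 rose (Atf3, Cebpb, Ddit3, Nupr1 and Psat1). Trib3, a pseudokinase induced by the response, averaged 5.004 ± 1.07 FPKM in CK-p25 and 0.137 ± 0.261 FPKM in CK microglia (SD, n = 4 each). Psat1, an enzyme of serine synthesis, averaged 49.1 ± 11.5 FPKM in CK-p25 and 17.6 ± 3.62 FPKM in CK microglia, and Cebpb, a transcription factor also active in inflammation, 308 ± 84.3 FPKM in CK-p25 and 112 ± 34.4 FPKM in CK. Atf4, a transcription factor gene controlled largely at translation, had a log2 change of 0.04 ± 0.19 and did not pass. Of 6 genes of eIF2 kinases and phosphatase subunits, Eif2ak2, the double-stranded RNA kinase that interferon induces, rose (11.2 ± 0.757 FPKM in CK-p25, against 4.44 ± 0.450 FPKM in CK). Eif2ak3, the kinase of the endoplasmic reticulum, fell (9.87 ± 0.617 FPKM in CK-p25, against 16.0 ± 2.08 FPKM in CK), a call lost in replicates 3 and 4 alone.
Of 15 genes of mTOR and MAP kinase control, 2 rose and 3 fell. These counts are near the shares of all genes (16.1% and 10.9%) and are no result about the list. Rps6, a ribosomal protein gene, averaged 44.8 ± 3.67 FPKM in CK-p25 and 20.7 ± 1.40 FPKM in CK microglia, and Larp1, whose product binds TOP mRNAs, 11.5 ± 2.99 FPKM in CK-p25 and 4.05 ± 0.979 FPKM in CK. Rptor, the mTORC1 scaffold, changed by -0.43 ± 0.13 on the log2 scale, Mlst8, another mTOR complex subunit, by -0.74 ± 0.25 and Mknk1, an eIF4E kinase, by -0.36 ± 0.12; these calls were lost without any one of 3 libraries for Rptor, 6 for Mlst8 and 5 for Mknk1, and in replicates 3 and 4 alone for all 3.
Of 9 tested genes of poly(A) binding, release, recycling and hypusination, 3 rose and 1 fell (all genes: 16.1% and 10.9%). Pabpc1, the poly(A) binding protein, averaged 34.1 ± 5.29 FPKM in CK-p25 and 16.1 ± 1.38 FPKM in CK microglia, and Tpt1, whose mRNA is another TOP mRNA, 90.8 ± 5.80 FPKM in CK-p25 and 47.0 ± 4.68 FPKM in CK. Etf1, the release factor, changed by 0.64 ± 0.13 on the log2 scale, and Paip2, an inhibitor of the poly(A) binding protein, by -0.33 ± 0.10, a call lost without any one of 4 libraries. Neither Etf1 nor Paip2 passed in replicates 3 and 4 alone. None of the 8 mitochondrial translation factors passed, in limma or in the robust fit. Before adjustment 0 of them had p under 0.05, where 37.1% of all genes had.

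**Figure D4:**
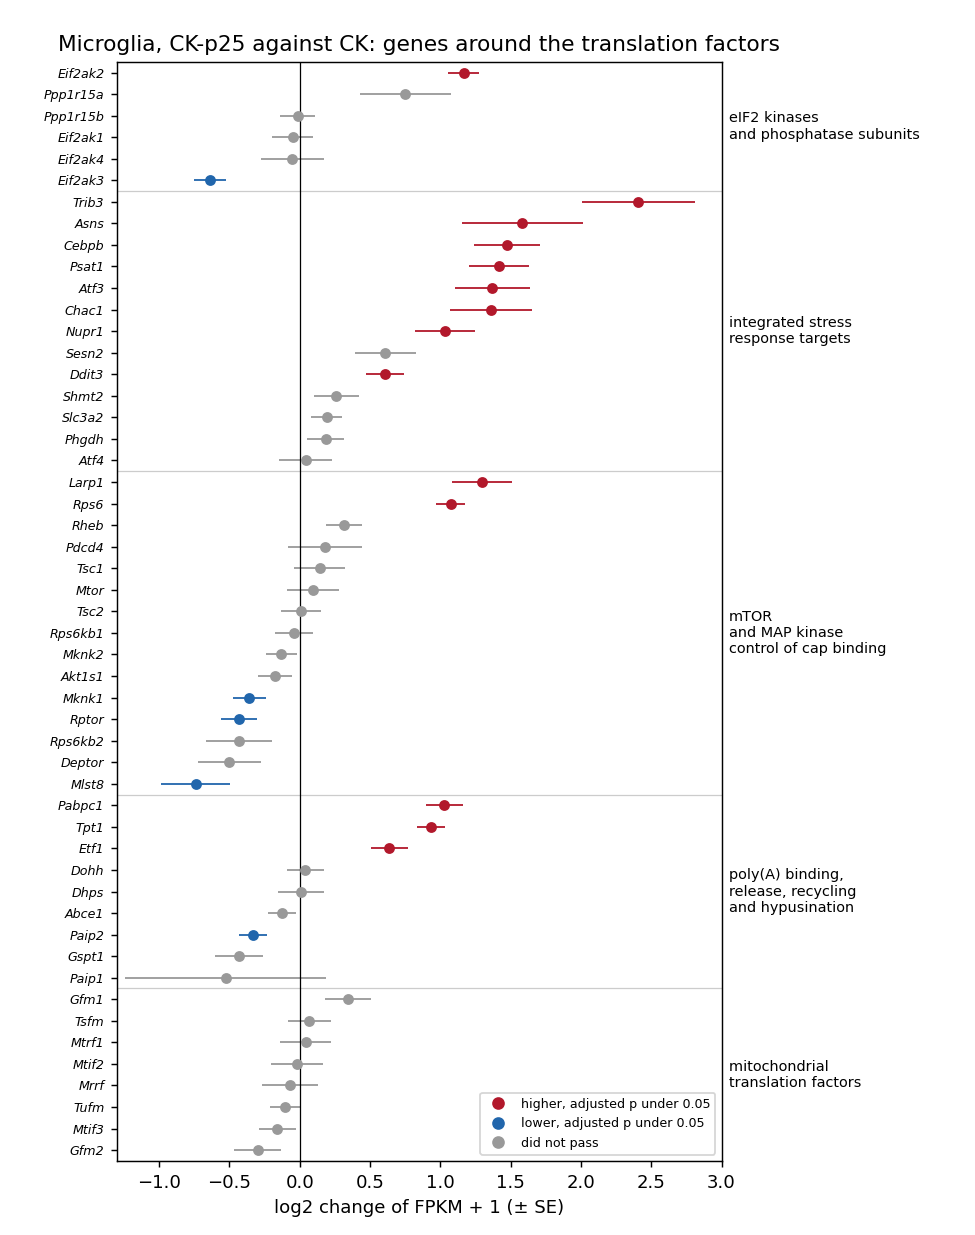
Log2 change of FPKM + 1 with its SE (x axis) in microglia, CK-p25 against CK, for tested genes of the 5 surrounding lists, sorted within each list. Of the integrated stress response targets 8 of 13 passed, all higher, 3 of them (Asns, Chac1 and Trib3) at under 1 FPKM in CK. The mTOR list holds 2 genes that passed higher and 3 lower, where 16.1% of all genes rose and 10.9% fell.

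Marker genes of cell state and of other cells moved with these changes. The 5 monocyte and neutrophil markers summed to 2760 to 4520 FPKM per CK-p25 library, against 984 to 1320 FPKM per CK library, with none at 0 in all libraries of a group; Lyz2 rose (mean 3498 FPKM in CK-p25, against 795.5 FPKM in CK), while Ccr2, Ly6c2, S100a8 and S100a9 did not pass. The 8 neuron markers summed to 1.85 to 6.88 FPKM in CK-p25, against 4.29 to 22.1 FPKM in CK libraries, with Gad1 at 0 in all CK-p25 libraries, and the 6 oligodendrocyte markers to 134 to 231 FPKM in CK-p25, against 150 to 956 FPKM in CK; Snap25 and Mag fell. Astrocyte markers summed to 65.8 to 88.4 FPKM in CK-p25 and 69.4 to 105 FPKM in CK libraries, and among them Gfap rose and Slc1a3 fell. Endothelial markers summed to 7.75 to 11.3 FPKM in CK-p25 and 14.6 to 20.3 FPKM in CK, where Flt1 rose and Pecam1 fell, and no perivascular macrophage marker passed. Of the 10 microglia markers, C1qa, C1qb and C1qc rose and Csf1r, Cx3cr1, P2ry12 and Tmem119 fell. The part of these markers in the changes of the translation factors was not tested. In such bulk libraries, fewer cells of a type and less RNA per cell cannot be told apart.

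GENUS moved no member past the test in CK-p25 microglia. Limma called 0 of 56 members and 0% of all genes in CK-p25 + GENUS against CK-p25, and the robust fit called 0 members. Before adjustment 8 of 56 members had p under 0.05, as had 762 of 10394 genes (7.33%), and 42 of 56 estimates were above 0, with a median of 0.08, against -0.0027 over all genes. Eif4a1 had 99.1, 121, 124 and 116 FPKM in CK-p25 + GENUS, against 84.8, 89.6, 87.7 and 91.9 FPKM in CK-p25 microglia (log2 change 0.37 ± 0.08, adjusted p = 0.530). Eif3g, an eIF3 subunit, had 91.9, 87.0, 90.6 and 92.5 FPKM in CK-p25 + GENUS, against 71.5, 86.6, 75.6 and 63.5 FPKM in CK-p25 microglia (log2 change 0.29 ± 0.09, adjusted p = 0.573). Both pairs of groups were apart. Among lower estimates, Eif4g3 had 11.4, 11.7, 10.9 and 8.42 FPKM in CK-p25 + GENUS, against 14.5, 12.2, 13.3 and 14.1 FPKM in CK-p25 microglia, also apart (log2 change -0.33 ± 0.13, adjusted p = 0.608), and Eif2s3y, the Y-linked eIF2 gamma gene, had 21.9, 25.9, 30.8 and 19.7 FPKM in CK-p25 + GENUS, against 27.8, 27.8, 36.8 and 44.1 FPKM in CK-p25 microglia, overlapping, with a log2 change of -0.45 ± 0.22 (adjusted p = 0.719).

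Set against CK, microglia of CK-p25 + GENUS mice had 21 members that rose and 2 that fell, where 17.3% of all genes rose and 13.4% fell. This comparison shares its CK libraries with that of CK-p25. The median log2 change was 0.25, against -0.03 over all genes. Quantile normalization gave 1474 genes higher and 1739 lower, where the values as deposited gave 1802 and 1393, and it gave 16 members higher and 3 lower, with a members' median of 0.17. All 9 TOP list members rose, by 0.49 (Eif4b) to 1.45 (Eef1a1); 8 of them were called without CK-p25 + GENUS replicate 1 or 2, without CK replicate 3 or 4, or in replicates 1 and 2 alone. Of all genes, 14.7% rose and 8.94% fell in replicates 1 and 2 alone, and 11.4% rose and 6.94% fell in replicates 3 and 4 alone. Eef1a1 had 779.5, 714, 749 and 585 FPKM in CK-p25 + GENUS, all above the highest CK library at 273 FPKM (log2 change 1.45 ± 0.10, adjusted p = 2.17e-07). Eif4b had 29.1, 29.5, 26.0 and 21.8 FPKM in CK-p25 + GENUS, and its groups overlapped.
The other elongation factor genes of the list had no CK-p25 + GENUS library within the CK range. Eef2 had 163, 149, 142 and 125 FPKM in CK-p25 + GENUS (log2 change 0.86 ± 0.10 against CK). Eef1b2 had 43.0, 45.6, 46.8 and 38.6 FPKM (log2 change 1.11 ± 0.10) and Eef1g had 32.4, 32.3, 34.8 and 27.3 FPKM in CK-p25 + GENUS (log2 change 1.18 ± 0.11). The leading eIF3 subunits were likewise apart from CK. Eif3f had 55.7, 58.3, 58.0 and 47.7 FPKM in CK-p25 + GENUS (log2 change 1.11 ± 0.09). Eif3k had 99.4, 94.0, 93.5 and 84.1 FPKM (log2 change 0.87 ± 0.10) and Eif3h had 79.8, 83.3, 73.0 and 72.3 FPKM in CK-p25 + GENUS (log2 change 0.89 ± 0.10).
Among genes outside the TOP list the repressor Eif4ebp1 stood at 78.1, 65.8, 67.8 and 61.7 FPKM in CK-p25 + GENUS, above all CK libraries (log2 change 1.09 ± 0.11, adjusted p = 5.68e-06). Eif4a1 had the values given above, against 69.3, 77.8, 76.1 and 73.5 FPKM in CK (log2 change 0.62 ± 0.08, adjusted p = 7.55e-05). The CK-p25 + GENUS libraries of both genes lay above all CK libraries.
Eef2k had 15.3, 15.5, 14.5 and 20.99 FPKM in CK-p25 + GENUS, all below the lowest CK library at 32.9 FPKM (log2 change -1.20 ± 0.17, adjusted p = 8.37e-05). Eif4g2, a relative of eIF4G that does not bind eIF4E, had 66.1, 66.2, 56.8 and 62.6 FPKM in CK-p25 + GENUS, against 94.4, 77.5, 75.2 and 75.3 FPKM in CK microglia (log2 change -0.35 ± 0.11, adjusted p = 0.0316). Its call was lost without any one of 4 libraries; without CK-p25 + GENUS replicate 3 or 4, or CK replicate 1 or 2, the members that fell numbered 1. The 9 eIF3 subunits that rose were Eif3f, Eif3k, Eif3h, Eif3a, Eif3e, Eif3i, Eif3m, Eif3l and Eif3c, and Eif5b and Eif6, which act in subunit joining and in keeping subunits apart, rose by 0.41 ± 0.13 and 0.29 ± 0.10 on the log2 scale.
Of the surrounding genes, Rps6 averaged 49.1 ± 6.10 FPKM, Larp1 10.8 ± 2.07, Pabpc1 42.9 ± 5.74 and Tpt1 108 ± 12.02 FPKM in CK-p25 + GENUS microglia, all of which rose relative to CK. Of the stress response targets 8 of 13 rose, with the same 3 genes under 1 FPKM in CK, and of the other 10 it was 6, among them Ddit3, the transcription factor CHOP (85.1 ± 6.68 FPKM in CK-p25 + GENUS, against 47.2 ± 4.49 FPKM in CK). Ppp1r15a, the inducible eIF2 phosphatase subunit, averaged 276 ± 49.1 FPKM in CK-p25 + GENUS and 147 ± 67.3 FPKM in CK (adjusted p = 0.0304), a call lost without any one of 4 libraries.
Other surrounding genes fell relative to CK. Of the mTOR and MAP kinase list 2 of 15 rose and 3 fell, where 17.3% of all genes rose and 13.4% fell. Rptor averaged 17.5 ± 2.79 FPKM in CK-p25 + GENUS and 30.4 ± 3.79 FPKM in CK (log2 change -0.77 ± 0.13, adjusted p = 0.000410) and was called whichever library was left out. Mknk1 averaged 78.8 ± 6.68 FPKM in CK-p25 + GENUS and 106 ± 14.0 FPKM in CK, and Rps6kb2, a ribosomal protein S6 kinase gene, 8.96 ± 2.04 FPKM in CK-p25 + GENUS and 15.2 ± 3.75 FPKM in CK. These calls were lost without any one of 2 libraries for Mknk1 and 4 for Rps6kb2. Of the 6 eIF2 kinase and phosphatase genes 2 rose (Eif2ak2 and Ppp1r15a) and Eif2ak3 fell, to 11.2 ± 0.752 FPKM in CK-p25 + GENUS, against 16.0 ± 2.08 FPKM in CK, a call lost within either side alone. In the poly(A), release, recycling and hypusination list 3 of 9 rose and 1 fell, Gspt1, a release factor gene, with 15.6 ± 1.01 FPKM in CK-p25 + GENUS, against 23.4 ± 6.87 FPKM in CK (lost without any one of 4 libraries). Of the 8 mitochondrial factors 1 fell, Gfm2, with 8.65 ± 1.94 FPKM in CK-p25 + GENUS, against 12.7 ± 2.53 FPKM in CK (lost without any one of 5).
In these libraries the monocyte and neutrophil markers summed to 3630 to 4320 FPKM, against 984 to 1320 FPKM in CK. Of these 5 markers only Lyz2 passed in CK-p25 against CK, so the sum is no measure of monocytes or neutrophils. The neuron markers summed to 1.98 to 4.26 FPKM, against 4.29 to 22.1 FPKM in CK. The part of these markers was not tested here either.

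In neuronal nuclei no member passed in any of the 6 comparisons. In CK-p25 against CK neurons limma called 0 of 55 members, where it called 1.01% of all genes; 3 members had p under 0.05 before adjustment (11.2% of all genes), and the robust fit called 0. The median log2 change was -0.09, against -0.0011 over all genes, and it was -0.15 without CK replicate 2 and -0.06 without CK-p25 replicate 2. The estimates of all 9 elongation factors were below 0, but none was called. The share of all genes with estimates below 0 is not given here, so this count is description only. Eef1a2 had 75.9, 80.0, 81.4, 82.4 and 107 FPKM in CK-p25 neurons (libraries sorted by value), against 76.6, 105, 109, 110.5 and 111 FPKM in CK neurons (log2 change -0.26 ± 0.12, adjusted p = 0.434). In each group 1 library lay among those of the other. Eef1a1 had 19.9, 22.3, 24.2, 32.7 and 35.4 FPKM in CK-p25, against 26.1, 31.5, 34.5, 34.6 and 39.0 FPKM in CK neurons, overlapping (log2 change -0.31 ± 0.15, adjusted p = 0.449). Eif3k had 7.41, 9.25, 13.4, 13.7 and 19.0 FPKM in CK-p25, against 13.4, 16.1, 16.4, 19.5 and 26.2 FPKM in CK neurons, overlapping (log2 change -0.54 ± 0.22, adjusted p = 0.378). Among higher estimates, Eif4g1 had 53.9, 54.7, 55.6, 56.7 and 56.9 FPKM in CK-p25, against 45.4, 49.7, 52.0, 52.1 and 54.7 FPKM in CK neurons (log2 change 0.13 ± 0.06, adjusted p = 0.451), overlapping at the ends, and Eif4enif1, the eIF4E transporter, had a log2 change of 0.16 ± 0.11.

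In CK-p25 + GENUS against CK-p25 neurons 0 members were called, as were 0% of all genes, and the robust fit called 0 members. Before adjustment 6 of 55 members had p under 0.05, as had 7.42% of all genes. Eif1ax had 4.22, 4.80, 5.57 and 5.71 FPKM in CK-p25 + GENUS neurons, against 4.80, 8.22, 8.94, 9.05 and 10.2 FPKM in CK-p25 neurons, overlapping through 1 CK-p25 library (log2 change -0.58 ± 0.21, adjusted p = 0.572). Eif3h had 6.38, 7.69, 10.1 and 10.8 FPKM in CK-p25 + GENUS, against 11.99, 12.4, 12.8, 13.6 and 15.1 FPKM in CK-p25 neurons, with the groups apart (log2 change -0.56 ± 0.24, adjusted p = 0.635). Eif4h, a cofactor of eIF4A, had 19.3, 20.01, 20.7 and 25.6 FPKM in CK-p25 + GENUS, against 14.7, 15.2, 17.5, 18.9 and 19.3 FPKM in CK-p25 neurons, overlapping at the ends (log2 change 0.30 ± 0.11, adjusted p = 0.572). Eef1b2 had 6.50, 8.77, 9.75 and 10.9 FPKM in CK-p25 + GENUS, against 5.38, 6.32, 6.37, 6.91 and 7 FPKM in CK-p25 neurons, overlapping (log2 change 0.42 ± 0.18).
Against CK neurons, in a comparison that shares the CK-p25 + GENUS libraries, 0 members and 1.46% of all genes were called. The robust fit called 0 members. Before adjustment 5 of 55 members had p under 0.05, as had 14.4% of all genes. Eif1ax, at 6.42, 7.61, 9.61, 11.5 and 12.4 FPKM in CK neurons, was lower in all CK-p25 + GENUS libraries (log2 change -0.76 ± 0.21, adjusted p = 0.0819). Eif4a2 had a log2 change of -0.30 ± 0.12 and did not pass. Eif2b4, an eIF2B subunit, had 17.2, 19.7, 26.3 and 26.6 FPKM in CK-p25 + GENUS, against 13.8, 14.0, 18.4, 19.0 and 19.6 FPKM in CK neurons, overlapping (log2 change 0.38 ± 0.16). Microglia markers summed to 18.3 to 30.2 FPKM in CK-p25 + GENUS, 12 to 19.2 in CK-p25 and 7.56 to 12.9 FPKM in CK neurons, with C1qc at 0 in all CK libraries. Astrocyte markers summed to 173 to 279 FPKM in CK-p25 + GENUS, 127 to 183 in CK-p25 and 131 to 158 FPKM in CK neurons; C1qa, C1qc and Gfap passed, higher, in CK-p25 + GENUS against CK, and their part in the neuron values was not tested.

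In P301S against WT neurons 0 members and 0.00817% of all genes (1 gene) were called, and 0 members in the robust fit. Before adjustment 5 of 55 members had p under 0.05, as had 5.64% of all genes. Eif3d, the eIF3 subunit that can bind the cap, had 8.32, 12.5 and 15.7 FPKM as lowest, median and highest library in P301S neurons, against 16.0, 20.04 and 25.1 FPKM in WT neurons. The groups did not overlap, and the log2 change of -0.71 ± 0.17 had an adjusted p of 0.759. Eif1b had 9.36, 10.8 and 15.9 FPKM as lowest, median and highest in P301S, against 11.99, 19.8 and 22.2 FPKM in WT neurons, overlapping (log2 change -0.65 ± 0.18, adjusted p = 0.825). Eif4g1 had a log2 change of 0.13 ± 0.06 and Eif2b2, an eIF2B subunit, one of 0.45 ± 0.21, without passing. With the side of the first component as a factor 0 members were called in any of the 3 comparisons of this set, and the change of Eif3d was -0.71 ± 0.17 (adjusted p = 0.286). Some levels moved with the side within a group: Eef1a1 was at 16.5 to 20.9 FPKM in P301S replicates 1 to 3 and 21.7 to 37.3 in replicates 4 to 6, against 12.7 to 25.01 FPKM in WT replicates 1 to 3 and 30.2 to 51.6 in replicates 4 to 6. Eef2 was at 24.6 to 26.5 FPKM in P301S replicates 1 to 3 and 32.0 to 37.3 in replicates 4 to 6, against 33.7 to 34.7 FPKM in WT replicates 1 to 3 and 34.3 to 43.0 in replicates 4 to 6.
In P301S + GENUS against P301S neurons 0 members and 0% of all genes were called, and 0 members in the robust fit. Before adjustment 5 of 55 members had p under 0.05, as had 4.28% of all genes. Eif3d had 13.9, 14.8, 18.5, 18.6 and 27.8 FPKM in P301S + GENUS neurons, overlapping those of P301S (log2 change 0.58 ± 0.18, adjusted p = 0.999). Eif1ad, an eIF1A domain protein gene, had 3.15, 3.19, 3.55, 5.56 and 5.97 FPKM in P301S + GENUS neurons, against 1.32, 2.17 and 2.92 FPKM as lowest, median and highest in P301S neurons, with the groups apart (log2 change 0.71 ± 0.26, adjusted p = 0.999). Eif4ebp1 had 1.47, 1.48, 1.51, 2.02 and 7.22 FPKM in P301S + GENUS neurons, against 2.14, 4.34 and 8.73 FPKM as lowest, median and highest in P301S neurons, overlapping through 1 library (log2 change -0.78 ± 0.35, adjusted p = 0.999). Eif4ebp3 had a log2 change of -0.37 ± 0.22.
In P301S + GENUS against WT neurons, which shares libraries with both comparisons above, 0 members and 0% of all genes were called. The robust fit called 0 members. Before adjustment 4 of 55 members had p under 0.05, as had 5.73% of all genes. The groups of these 4 members overlapped. Eif3k had 11.6, 14.5, 15.4, 18.7 and 19.2 FPKM in P301S + GENUS neurons, against 16.3, 26.8 and 33.1 FPKM as lowest, median and highest in WT neurons (log2 change -0.59 ± 0.23, adjusted p = 0.817). Eif1a had 4.08, 4.53, 5.34, 5.35 and 9.47 FPKM in P301S + GENUS neurons, against 1.79, 3.86 and 5.55 FPKM as lowest, median and highest in WT neurons (log2 change 0.53 ± 0.25, adjusted p = 0.849). The log2 change was 0.35 ± 0.17 for Eif4e3, a cap binding paralog of Eif4e, and -0.61 ± 0.29 for Eif4ebp2. No gene of the 5 surrounding lists passed in a neuron comparison in limma or in the robust fit.

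**Figure D5:**
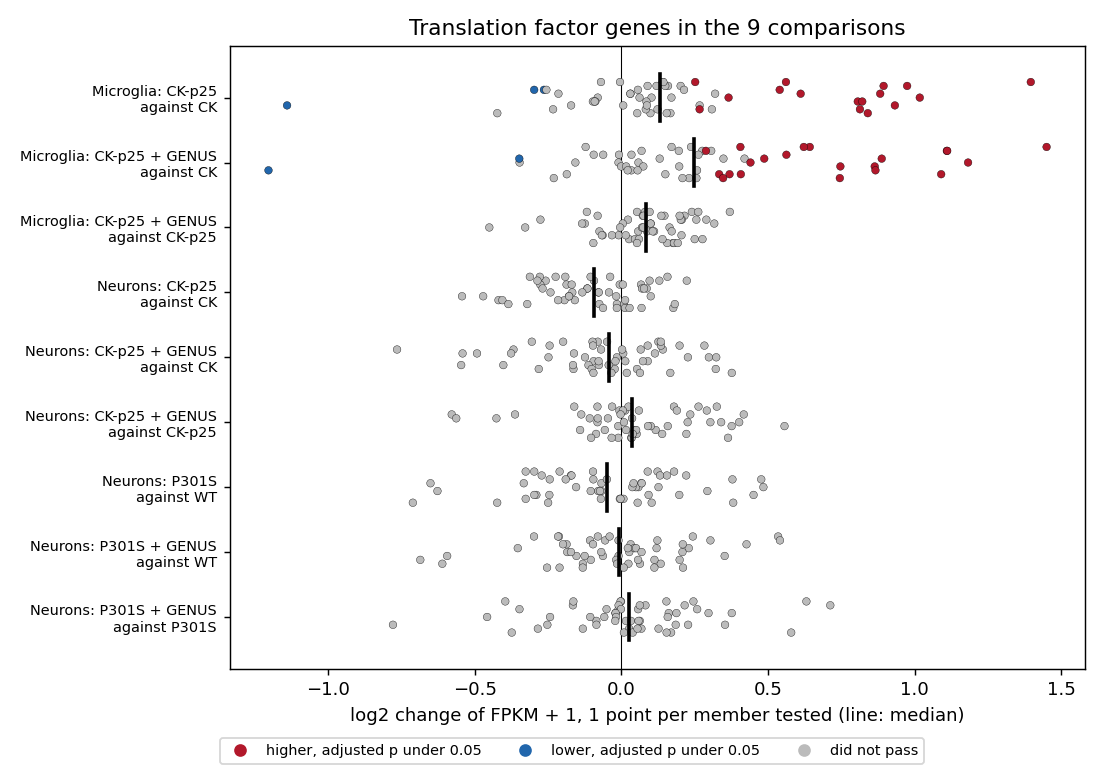
Log2 change of FPKM + 1 (x axis) of every tested member in the 9 comparisons, 1 point per gene, with the median as a line; red and blue points passed the test. Points that passed appear in the 2 microglia comparisons with CK (21 higher and 2 lower for CK-p25 + GENUS, 16 higher and 3 lower for CK-p25) and in none of the other 7.

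The p25 effect itself was tested for a difference between the cell types, as CK-p25 minus CK in microglia minus the same in neurons. Of 54 members tested in both, 11 were more positive in microglia and 1 more negative, where 7.37% and 5.52% of all genes were called in these directions. The largest difference was that of Eef1a1 (1.71 ± 0.20, adjusted p = 2.09e-06), and the single negative one was that of Eef2k (-1.15 ± 0.19, adjusted p = 0.000141). The other 10 were Eef1g, Eif3k, Eif3f, Eef1b2, Eef2, Eif1a, Eif3e, Eif4b, Eif3a and Eef1d, with differences of 0.66 to 1.49 on the log2 scale. The 11 hold 8 of the 9 TOP list members; for Eif3h the adjusted p was 0.0557.
The GENUS effect gave 0 members called in microglia minus neurons of CK-p25 mice, where 0% of all genes were called. Before adjustment 8 of 54 members had p under 0.05, as had 6.76% of all genes. In CK-p25 minus P301S neurons 0 members and 0% of all genes were called. There 5 of 54 members had p under 0.05 before adjustment, as had 4.37% of all genes. The robust fit called 0 members in both. The model effect in neurons, CK-p25 minus P301S, gave 0 members called, where 0.0997% of all genes were called, and 0 in the robust fit. Before adjustment 3 of 54 members had p under 0.05, as had 6.68% of all genes.

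Sex-linked genes separated the sets, which bears on these differences between sets. Eif2s3y, the Y-linked gene of the eIF2 gamma subunit, was listed at 0 in all 14 neuron libraries of the CK-p25 set, where Xist was at 329 to 412 FPKM. In P301S set neurons Eif2s3y was at 15.2 to 38.2 FPKM and in microglia at 19.7 to 45.3 FPKM, with Xist at 0.136 FPKM or lower. The labels give no sex. Within each set the libraries were alike in this respect. Between microglia and neurons of the CK-p25 set, sex-linked expression, kit, RNA fraction and cell type cannot be told apart. The 2 neuron sets share sort, kit and RNA fraction. Between them, sex-linked expression, mouse model and GENUS duration (43 against 22 days) cannot be told apart, and the labels give an age only for P301S mice. Eif2s3x, the X-linked copy, was at 2.34 FPKM or lower in every library. In CK-p25 set neurons it was at 0.426 to 2.34 FPKM, with Eif2s3y at 0, so no reads there were counted for the Y copy. How reads were divided between these similar copies in the other libraries is uncertain. The same is uncertain for the nearly identical Eif3j1 and Eif3j2 in every library. Eif4e1b, an eIF4E paralog of the oocyte, was listed at 0 in every library.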

How the data were processed

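The authors deposited FPKM values per gene for each library; the submitters' processing notes name STAR, Cufflinks 2.0.0 and the build mm9, and give no other setting. No counts come with the values, so no count test was run, and how reads from near-identical copies were counted is not stated. Each of the 3 sets (microglia, and the neurons of either model) was analysed as log2(FPKM + 1) for genes with a mean of at least 1 FPKM in the set. Limma 3.58.1 in R 4.3.3 fitted the 3 groups of a set together, with a mean trend in the prior variance and Benjamini-Hochberg adjustment over all genes tested, at a threshold of 0.05. Differences of an effect between sets were tested as contrasts over genes tested in both. The fits were tested on simulated data. Fold changes on this scale understate those of low genes. Paralog shares were tested with exact two-sided permutation tests.

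Members and gene lists were chosen with earlier results of these data known, so no count over a list is independent evidence. Named are members past the threshold (at most the 10 with the smallest p per comparison and direction), the 2 with the smallest p in a direction where fewer than 2 passed, and a fixed core (Eif4e, Eif4g1, Eif4ebp1, Eif4ebp2, Eif4a1, Eif4a2, Eif2s1, Eif2b5, Eif5a, Eef1a1, Eef1a2, Eef2, Eef2k); a few others are given beside them as examples chosen after their values were seen. Alternatives were the pseudocount (0.1, 0.5), the minimum (none, 5 FPKM), median-ratio rescaling, quantile normalization, only the groups compared, a replicate block, a robust fit without a trend, and each library left out; the side of the first principal component as a factor and the microglia replicates 1 and 2 or 3 and 4 alone were added after seeing the data. Whether equal replicate numbers pair the libraries was checked by the correlation of deviations from group means: all 4 pairs exceeded 0.1 only between CK-p25 + GENUS and CK-p25 microglia (0.105 to 0.338), a pairing that comes from the data and not from the labels. Promoter sequences are RefSeq's, build GRCm38.p6.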

Additional observations from a re-analysis of the deposited data

Results flagged for a closer look

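In 8 of 106 groups of libraries examined for the named members, 1 library lay far from the rest relative to the range of its group; chance gives this in about 1 in 20 groups. In neurons, Eef1a2 was at 106.9 FPKM in CK-p25 replicate 1, where the next library was at 82.4 FPKM, and at 76.6 FPKM in CK replicate 4, where the next was at 104.8 FPKM. Eif1a was at 9.475 FPKM in P301S + GENUS replicate 2 (next 5.35 FPKM), the library with the coarsest steps, and Eif4ebp1 at 7.216 FPKM in P301S + GENUS replicate 4 (next 2.02 FPKM). In microglia, Eef2k was at 20.99 FPKM in CK-p25 + GENUS replicate 4 (next 15.5 FPKM) and Eif4e at 28.99 FPKM in CK-p25 replicate 1 (next 25.4 FPKM). Eif4a2 was at 28.2 FPKM in CK replicate 2 (next 42.75 FPKM), and Eif4g2 at 94.4 FPKM in CK replicate 1 (next 77.5 FPKM).

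For 12 of 54 members the effect of p25 differed between microglia and neuronal nuclei in the limma test of the difference itself (adjusted p under 0.05). Of all 8929 genes tested, 7.37% were called more positive in microglia and 5.52% more negative. The difference, microglia minus neurons on the log2 scale, was 1.71 for Eef1a1, 1.49 for Eef1g, 1.48 for Eif3k, 1.26 for Eif3f, 1.17 for Eef1b2 and 0.96 for Eef2. It was 0.88 for Eif1a, 0.84 for Eif3e, 0.78 for Eif4b, 0.72 for Eif3a, 0.66 for Eef1d and -1.15 for Eef2k. Cell type, kit, RNA fraction and sex-linked expression cannot be told apart here.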

How the results depend on the processing

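The counts of members called kept within 1.5 times of the values given under the alternatives run, with these exceptions. In CK-p25 against CK microglia the members that fell numbered 5 under quantile normalization and 1 in replicates 1 and 2 or 3 and 4 alone, against 3; leaving out single libraries gave 13 to 16 higher and 2 to 3 lower. In CK-p25 + GENUS against CK microglia they numbered 1 in the robust fit and in replicates 1 and 2 or 3 and 4 alone, against 2; leaving out single libraries gave 17 to 21 higher and 1 to 2 lower. The count of different p25 effects was 12 to 15 without single libraries. The cause was not tested. With a replicate block, CK-p25 microglia gave 17 higher and 2 lower against CK. CK-p25 + GENUS microglia gave 21 and 2 against CK, and 0 against the paired CK-p25 libraries. The count of different p25 effects with the block was 13. Shares of all genes called with the block, in the robust fit or without single libraries are not given here. These counts of members therefore have no background beside them.

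Of shares without a call, in percentage points, the Eif4a2 difference between CK-p25 + GENUS and CK-p25 neurons was -0.397 with the replicate block and -1.05 to 2.59 without single libraries. As log2 ratios, the Eef1a2 difference in CK-p25 + GENUS against CK-p25 microglia was -0.0467 and the Eif4ebp2 difference in P301S + GENUS against WT neurons 0.0751. Without single libraries, Eef1a2 gave -0.311 to 2.29 (CK-p25 against CK neurons) and -0.372 to 1.76 (P301S against WT), and Eif4a2 -2.82 to 0.738 (P301S against WT). Eif4ebp2 gave -2.53 to 6.35 (CK-p25 against CK neurons), -6.92 to 6.00 (P301S + GENUS against WT) and -0.557 to 0.343 (CK-p25 + GENUS against CK-p25 microglia). In CK-p25 against CK microglia the log2 change of Eif4e was -0.0205 in replicates 3 and 4 alone, that of Eif2b5 -0.14 in replicates 1 and 2 alone and -0.0207 to 0.131 without single libraries, that of Eif4a2 -0.0333 to 0.208 without single libraries, and that of Eif5a -0.0227 under quantile normalization. Unknown depth limits all low values.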
